A study of Rattus norvegicus with 6 samples.

Results

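MicroRNAs (miRNAs) reach their targets through a small set of proteins that cut, carry and load them. The genes described here are 8 parts of that machinery, chosen by name: *Drosha* and *Dgcr8*, *Xpo5*, *Dicer1* and *Tarbp2*, *Ago2*, *Tnrc6a* and *Lin28a*. Of these 8 genes, 5 had a probe on the array whose RefSeq accession matched the name, out of 13903 genes named in this way. *Dicer1*, *Ago2* and *Tnrc6a* had no matched probe and were not analysed here. The table of names held 14274 of the 15321 mRNA accessions on the array, so a gene without a match may still have a probe. Each of the 5 measured genes had 1 probe, and each of these probes was well above background on all 6 arrays and entered the test.

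Islet RNA came from Wistar males aged 3 or 12 months, with 3 rats and 3 arrays of each age and no other treatment given in the labels. Animals were killed with CO2 and islets were released by collagenase, so each RNA is that of a whole islet preparation with every cell type it held. The comparison asks which transcripts differ between islets of 12-month-old rats and those of 3-month-old rats. The arrays have 1 colour, and values are log2 of the background-subtracted spot intensity after quantile normalisation, so that 1 unit is a 2-fold difference.

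Primary miRNA transcripts are cut in the nucleus by the Microprocessor, in which *Drosha* is the nuclease and *Dgcr8* the RNA-binding partner. The hairpin released is carried to the cytoplasm by *Xpo5*, trimmed by the nuclease *Dicer1* with its RNA-binding partner *Tarbp2*, and loaded into an Argonaute such as *Ago2*, which *Tnrc6a* links to the enzymes that shorten and decay target mRNAs. *Lin28a* acts against this flow for the let-7 family, since it binds the let-7 hairpin and lets the uridylyltransferase *Tut4* tail it for decay by *Dis3l2*. In beta cells miRNAs are known regulators of insulin production, secretion and survival. The arrays measure the mRNAs of these proteins, not miRNAs.

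The sequence read by *Lin28a* is short and is shown because *Lin28a*, *Tut4* and *Dis3l2*, all measured below, act on the hairpin that carries it. The 5′ arms of the 9 rat let-7 hairpins in the RefSeq table share a seed, bases 2 to 8, shown in capitals in the mature let-7a.
let-7a-5p: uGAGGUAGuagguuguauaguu
The stretch between the mature arms of a let-7 hairpin carries the letters GGAG, in capitals in the first 3 of these stretches from RefSeq (build GRCr8), which lie at chr17:16320167-16320195 (plus strand), chr1:67350265-67350287 (plus strand), chrX:24460074-24460101 (plus strand) and chr7:118683658-118683683 (plus strand).
let-7a-1: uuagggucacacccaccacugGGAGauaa
let-7e: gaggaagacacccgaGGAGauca
let-7f-2: uuagggucauaccccaucuuGGAGauaa
let-7c-2: uugggcucugccccgcucugcgguaa
GGAG, searched on the RNA strand only, stood in this stretch in 8 of 9 let-7 hairpins, the exception being let-7c-2. Of 263 rat hairpins with both arms in the table, 24 held it there, or 9.13%. A match of letters is a description of the sequence, not a measured binding site.

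Each age was scanned separately, in 1 scan of 3 arrays, and the effects of scan and age cannot be told apart below. At 3 months 75.7% ± 2.32 (SD, n = 3) of all probes were well above background, and at 12 months 61.2% ± 2.61 (SD, n = 3), while negative control spots had a median signal of 30.2 ± 0.764 scanner units (SD, n = 3) and 90.5 ± 0.866 (SD, n = 3). Of 17931 tested probes, 953 were higher and 543 lower at 12 months with a limma adjusted p below 0.05 (Benjamini-Hochberg over all probes). With each array shifted to a common 75th percentile instead, 795 were higher and 925 lower. Leaving out 1 array moved the share of probes called, 8.34% with all arrays, to between 1.16% (208 probes, without 12-month replicate 1) and 12.1% (2176 probes, without 12-month replicate 2). It was 1.62% without 12-month replicate 3, 1.80% without 3-month replicate 1 and 2.56% without 3-month replicate 3. The median difference of all tested probes was -0.17 (log2), and -0.40 with that shift. The 7 measured islet endocrine markers were above background on all arrays, with a summed level of 20.66 to 20.81 (log2) at 3 months and 20.99 to 21.04 at 12 months. None passed the adjusted threshold, but 6 of the 7 had a positive difference and 1 a negative one, where 42.0% of all tested probes had a positive one. *Iapp*, named after its value was seen, came nearest to the threshold (0.95 log2, limma adjusted p 0.0532).

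Among the 5 measured members, *Tarbp2* alone passed an adjusted p of 0.05 (limma), and it was lower at 12 months. *Drosha* and *Xpo5* were higher on every 12-month array than on any 3-month array, without passing the adjusted threshold, and *Dgcr8* and *Lin28a* overlapped between the ages. The 1 call among 5 members stands beside 8.34% of all tested probes called, and 3.03% called lower. The median difference of the 5 members was 0.20 (log2), against -0.17 over all tested probes. The plot of member levels by array gives all values.

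**Figure D1:**
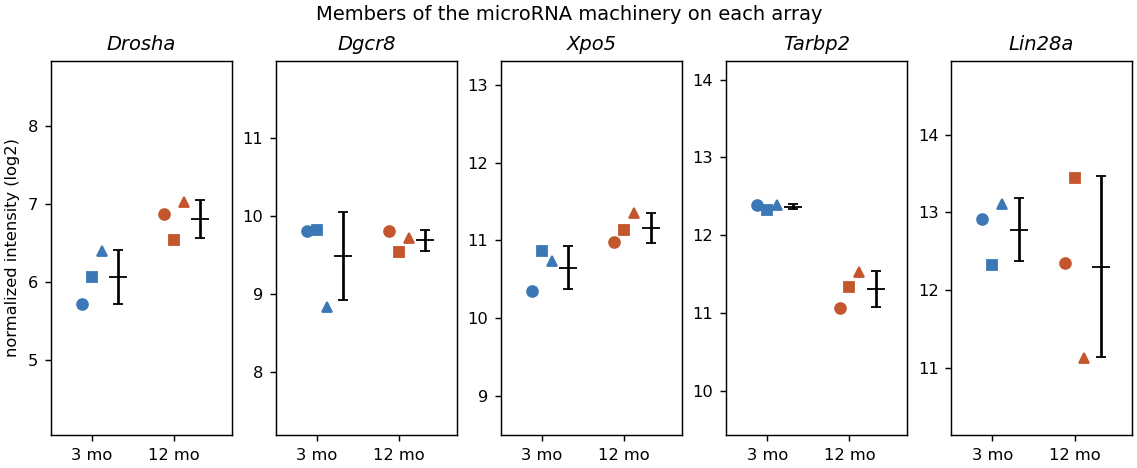
Normalized intensity (log2) of the 5 measured members on each array, with 3-month arrays in blue and 12-month arrays in red; circle, square and triangle are replicates 1, 2 and 3, the black bar is the mean ± SD (n = 3), and every panel spans the same number of log2 units. *Tarbp2* lay between 12.33 and 12.39 at 3 months and between 11.06 and 11.52 at 12 months, whereas *Lin28a* spread from 11.13 to 13.44 within the 12-month arrays.

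In the Microprocessor, the nuclease and its partner gave different pictures. *Drosha* had normalised levels of 5.72, 6.06 and 6.40 (log2) on the 3-month arrays and 6.87, 6.54 and 7.02 on the 12-month arrays. All 12-month arrays stood above all 3-month arrays, although the highest 3-month and the lowest 12-month values lay close together. The difference was 0.75 (log2; limma SE 0.28, 95% interval 0.09 to 1.41), with an unadjusted p of 0.0322 and an adjusted p of 0.123 (limma). Its 3-month spots were dim, at 24.8, 60.2 and 91.2 scanner units, and the 12-month spots were at 220, 131 and 126. The size of the difference depended on the scaling, at 0.43 with the 75th percentile shift and 0.39 with normexp background correction.

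*Dgcr8* had levels of 9.81, 9.83 and 8.84 (log2) at 3 months and 9.81, 9.54 and 9.72 at 12 months. The groups overlapped, and 3-month replicate 3 was the one array apart from the rest. The difference of 0.20 (log2; limma SE 0.33, 95% interval -0.59 to 0.98, adjusted p 0.697) was smaller than its error. Without that array it was -0.13, so that its sign rested on 1 sample.

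*Xpo5*, which carries the cut hairpin out of the nucleus, had levels of 10.35, 10.87 and 10.74 (log2) at 3 months and 10.98, 11.13 and 11.36 at 12 months. Every 12-month array was higher than every 3-month array, by a narrow margin. The difference was 0.50 (log2; limma SE 0.25, 95% interval -0.10 to 1.11, adjusted p 0.212), and its interval includes 0. An absence of overlap is common in this comparison: 39.2% of 17874 probes with a value on all arrays showed it, 16.5% with the 12-month arrays higher and 22.7% with them lower. Among the 5 members it was seen in 3, with 2 higher and 1 lower.

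*Tarbp2*, whose protein binds double-stranded RNA beside Dicer and helps to hand the cut duplex to an Argonaute, had levels of 12.38, 12.33 and 12.39 (log2) on the 3-month arrays. On the 12-month arrays the levels were 11.06, 11.33 and 11.52. The 3-month arrays were almost level with each other, and every 12-month array was below them. The mean fell from 12.37 ± 0.03 (SD, n = 3) to 11.31 ± 0.23 (SD, n = 3), a 2.09-fold decrease. On the log2 scale the difference was -1.06 (limma SE 0.23, 95% interval -1.61 to -0.51, adjusted p 0.0410). *Tarbp2* was also the 1 member past the cut-offs of the study (more than a 2-fold difference and an unadjusted p below 0.05) with limma p-values. With these p-values 22.0% of all tested probes passed, and 11.9% passed downwards. The supplement of the study names a paired test instead of limma. With arrays paired by replicate number in such a test, 957 of 17874 probes passed the same cut-offs upwards and 593 downwards. An exact permutation test of 3 arrays against 3 gave a two-sided p of 0.1, the smallest this design allows.

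The call for *Tarbp2* was close to the threshold. Leaving out any 1 array kept the decrease, between -1.17 and -0.94 (log2), but the adjusted p (limma) then lay between 0.0562 and 0.160, so that each of the 6 arrays was needed for the call. Over all 20 alternatives the decrease ranged from -1.25 to -0.94 and was called in 8. The members were chosen with earlier results of these data known, so the arrays are not independent evidence of the direction of *Tarbp2*.

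A shift of a whole array cancels when probes of the same array are compared. An effect of scan that differs between dim and bright probes does not cancel, and each age was scanned separately. *Xpo5* minus *Tarbp2* was higher at 12 months by 1.57 log2 units, with an SD over arrays of 0.29 at 3 months and 0.06 at 12 months. The same differences for *Drosha* minus *Tarbp2* and *Dgcr8* minus *Tarbp2* were higher by 1.81 and 1.26 log2 units. *Tarbp2* minus *Lin28a* changed by -0.59 log2 units and overlapped between the ages, with an SD of 0.37 at 3 months and 1.28 at 12 months. These values are descriptions, since *Tarbp2* stands in each of them and no exact test of 3 arrays against 3 can go below 0.1.

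Of 9081 named genes above background on all 6 arrays, those whose pattern over the 6 arrays was most like that of *Tarbp2* were *Ndrg3*, *Cxxc5* and *Nme2*, with Pearson's r of 0.999, 0.999 and 0.998. Their differences between the ages were -0.79, -0.75 and -0.47 (log2). An r above 0.95 was reached by 199 genes, and points of the same age share a scan, so the likeness is a description.

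*Lin28a*, the RNA-binding protein that holds back let-7 maturation, had levels of 12.92, 12.32 and 13.10 (log2) at 3 months and 12.35, 13.44 and 11.13 at 12 months. Both the highest and the lowest value of all 6 arrays were 12-month arrays, and the groups overlapped. The SD was 0.41 (n = 3) at 3 months and 1.16 (n = 3) at 12 months. The difference was -0.48 (log2; limma SE 0.58, 95% interval -1.86 to 0.91, adjusted p 0.587), and the interval holds both a decrease and an increase. Without 12-month replicate 2 the difference was -1.04, and without 12-month replicate 3 it was 0.11.

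The spread of *Lin28a* ran beside that of acinar cell markers, the digestive enzymes of the exocrine pancreas that surrounds islets. The mean level of the 8 measured acinar markers of 9 listed was 17.67, 17.85 and 16.47 (log2) on the 3-month arrays and 17.95, 16.52 and 18.12 on the 12-month arrays. In each age the array with the lowest acinar markers, 3-month replicate 3 or 12-month replicate 2, had the highest *Lin28a*. The summed level of the markers was 20.36 to 20.99 (log2) at 3 months and 20.20 to 21.15 at 12 months, and none of the 8 differed with age at the adjusted threshold. On the 4 arrays with higher acinar levels, *Tarbp2* differed by -1.06 (log2; limma adjusted p 0.108). Their part in the level of *Lin28a* was not tested.

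**Figure D2:**
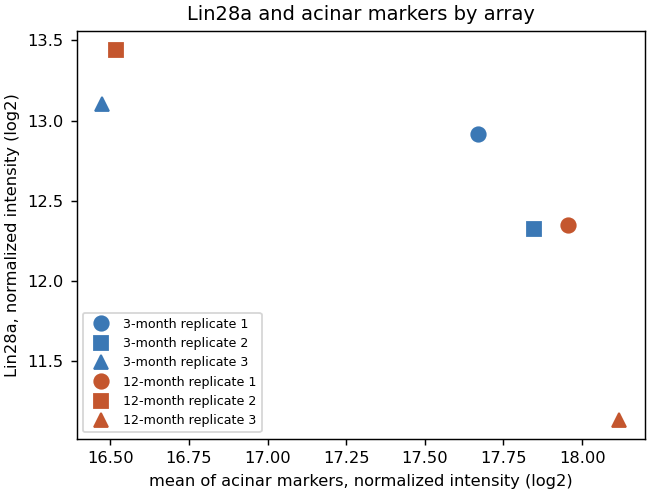
Level of *Lin28a* (normalized intensity, log2) on each array against the mean level of 8 acinar markers on that array (log2), with 3-month arrays in blue and 12-month arrays in red and 1 point per array. The arrays with acinar means of 16.47 and 16.52 had *Lin28a* levels of 13.10 and 13.44, and the array at 18.12 had 11.13.

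Around these members, 67 further genes of the pathway were followed in 4 lists, of which 40 had a matched probe and were tested. Of the 40, 6 rose at 12 months at the adjusted threshold and 0 fell, while 34 did not pass (limma). That is 15.0% called, against 8.34% of all tested probes, and against 5.31% called higher. At an unadjusted p under 0.05 there were 14 higher and 0 lower, where 32.4% of all tested probes passed, 13.7% higher and 18.8% lower. At the threshold of the study, with limma p-values, 8 were higher and 0 lower, where 10.1% of all tested probes were called higher. The median difference of the 40 genes was 0.32 (log2), and 29 had a positive difference, where 42.0% of all tested probes did. With the 75th percentile shift 23 of 40 had a positive difference, where 33.2% of all tested probes did, and the median was 0.24. With that shift 3 of 40 were called, a smaller share than the 9.59% of all tested probes. These 3 were higher, where 795 of 17931 tested probes were called higher. The groups did not overlap for 16 genes that were higher and 4 that were lower. Of all probes with a value on every array, 16.5% and 22.7% did so. *Pabpc1*, which had no value on 1 array, is not in these counts.

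**Figure D3:**
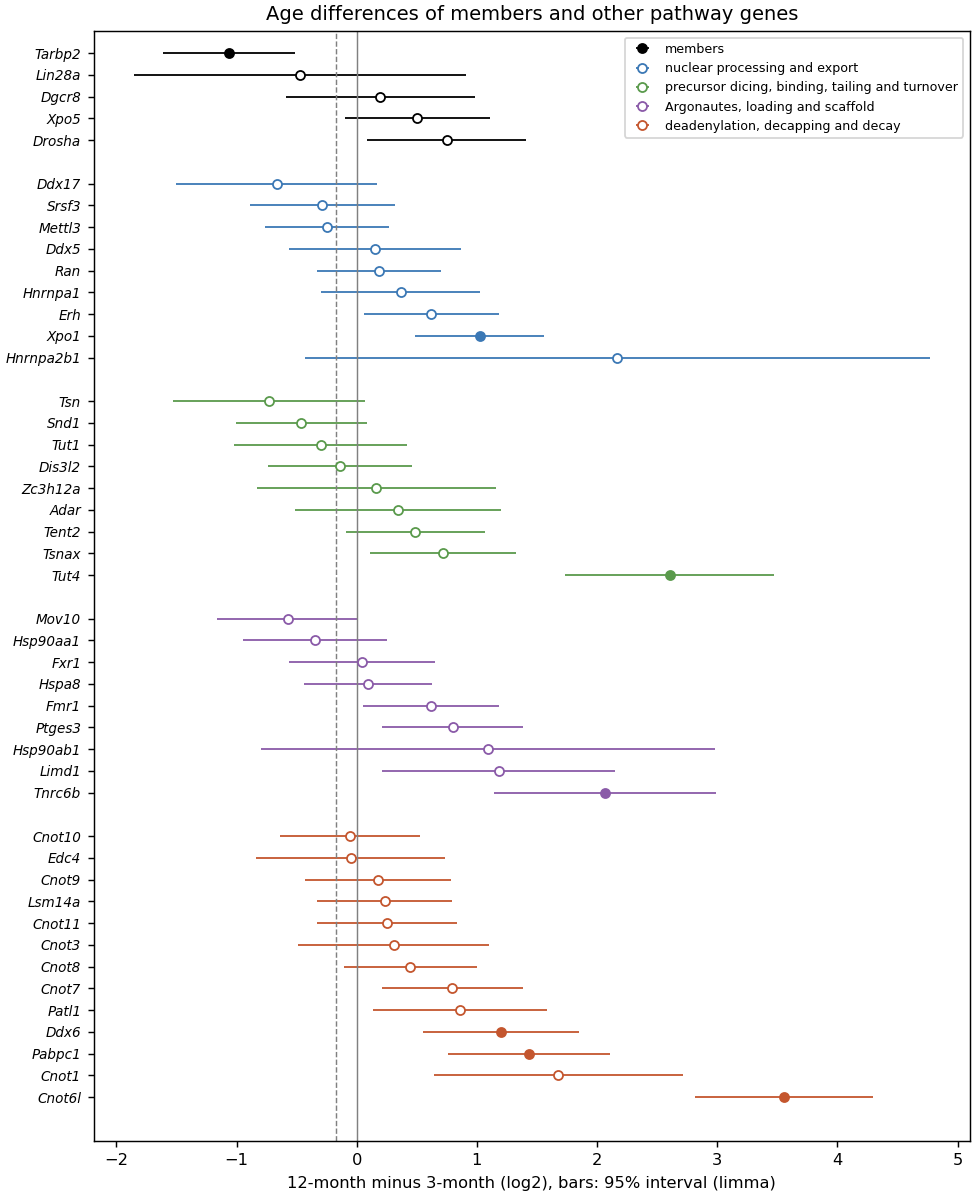
Difference between the ages (12-month minus 3-month, log2) for the 5 members and 40 other pathway genes grouped by list, with 95% intervals from limma; filled points passed an adjusted p of 0.05, the solid line is 0 and the dashed line the median of all tested probes (-0.17). *Tarbp2* is the filled point below 0, and the 6 filled points above 0 range from *Xpo1* at 1.02 to *Cnot6l* at 3.56.

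Among genes of nuclear processing and export, 9 of 12 were tested and 1 rose, or 11.1% called against 8.34% of all tested probes. This was *Xpo1*, the general nuclear export receptor, which also carries some miRNA precursors. Its levels were 11.32, 11.21 and 10.94 (log2) at 3 months and 12.13, 12.16 and 12.25 at 12 months, with a wide gap between the ages. The difference was 1.02 (log2; limma SE 0.23, adjusted p 0.0425), and no fit with 1 array omitted called it, with adjusted p between 0.0578 and 0.147. The median of this list was 0.18 (log2), but -0.17 with the 75th percentile shift, with 4 rather than 6 of 9 differences positive.

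Among genes of precursor dicing, binding, tailing and turnover, 9 of 13 were tested and 1 rose, again 11.1% against 8.34%. *Tut4*, the uridylyltransferase that tails let-7 precursors held by Lin28, had levels of 6.74, 8.05 and 7.14 (log2) at 3 months and 9.86, 10.03 and 9.84 at 12 months. The 12-month arrays were close to each other and far above the 3-month arrays. The difference was 2.60 (log2; limma SE 0.37, adjusted p 0.0137), a 6.08-fold rise, called in 3 of 6 fits that left out 1 array. *Dis3l2*, the nuclease that decays the tailed precursor, differed by -0.14 (log2; limma SE 0.25, adjusted p 0.716), and at 12 months it was above background on 1 array of 3. *Lin28b*, the paralogue of *Lin28a*, had no matched probe. The median of the list was 0.16 (log2).

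Among Argonautes, loading factors and scaffolds, 9 of 17 were tested and 1 rose, again 11.1% against 8.34%. *Tnrc6b*, a paralogue of *Tnrc6a* with the same role as the scaffold between Argonaute and deadenylases, had levels of 9.49, 9.49 and 8.36 (log2) at 3 months and 10.98, 11.58 and 10.98 at 12 months. All 12-month arrays lay well above the 3-month arrays. The difference was 2.07 (log2; limma SE 0.39, adjusted p 0.0280), a 4.19-fold rise, called in 2 of 6 fits that left out 1 array. The paralogues *Ago1*, *Ago3*, *Ago4* and *Tnrc6c* had no matched probe, so that no Argonaute was analysed here. The median of the list was 0.61 (log2). The threshold of the study added *Limd1*, which bridges Argonaute and the cap-binding complex, with a difference of 1.18 (log2; limma SE 0.41, adjusted p 0.106), a gene named after its value was seen.

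Among genes of deadenylation, decapping and decay, the step that acts on silenced targets, 13 of 25 were tested and 3 rose. That is 23.1% called, against 8.34% of all tested probes. *Cnot6l*, a deadenylase subunit of the CCR4-NOT complex, had levels of 4.44, 5.31 and 5.04 (log2) at 3 months and 8.18, 8.74 and 8.53 at 12 months. The gap between the ages was several times the spread within each. The difference was 3.56 (log2; limma SE 0.31, adjusted p 0.00390), an 11.8-fold rise, called in 6 of 6 fits that left out 1 array and in 17 of 20 alternatives. Its 3-month spots were dim, at 12.2, 35.5 and 36.9 scanner units, and with normexp background correction the difference was smaller, at 2.15 (log2; limma adjusted p 0.00350).

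*Pabpc1*, the cytoplasmic poly(A)-binding protein, had levels of 14.17 and 14.04 (log2) on 3-month replicates 1 and 3 and of 15.31, 15.63 and 15.67 at 12 months. Its spot on 3-month replicate 2 was marked as an outlier by the scanner software and gave no value, so the fit rested on 5 arrays. The difference was 1.43 (log2; limma SE 0.27, adjusted p 0.0371). *Ddx6*, the helicase that ties deadenylation to decapping, had levels of 7.39, 7.15 and 6.71 (log2) at 3 months and 8.41, 8.04 and 8.41 at 12 months. All 12-month arrays were above the 3-month arrays, with a difference of 1.20 (log2; limma SE 0.27, adjusted p 0.0459). Each of the 5 fits that left out a measured array of *Pabpc1* lost its call, with adjusted p between 0.0541 and 0.120 (limma). *Ddx6*, named after its value was seen, was called in 1 of 6 fits that left out 1 array.

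The remaining deadenylation and decay genes did not pass the adjusted threshold, and the median of the list was 0.45 (log2). *Cnot1*, the scaffold of CCR4-NOT, passed the threshold of the study with a difference of 1.68 (log2; limma SE 0.44, adjusted p 0.0605), and it is named after its value was seen. Its 3-month levels of 11.92, 11.79 and 10.36 (log2) held 1 low array, replicate 3, against 13.05, 13.02 and 13.04 at 12 months. *Cnot6l*, *Pabpc1* and *Xpo1* were in the tables of the study on these arrays, and the lists were written with those tables known, so the counts are not independent evidence of a direction.

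**Figure D4:**
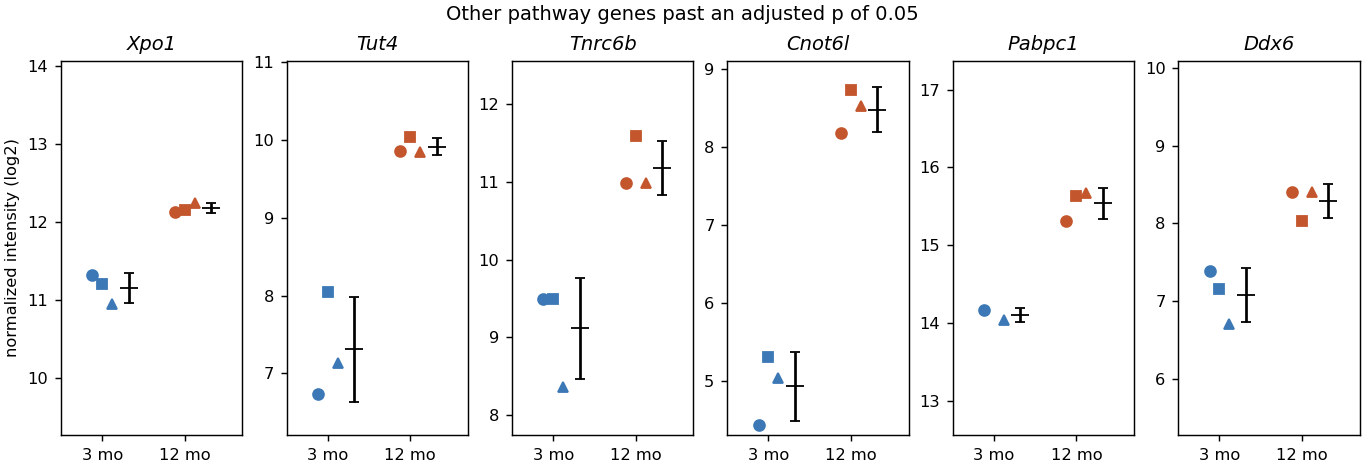
Normalized intensity (log2) of the 6 other pathway genes past an adjusted p of 0.05 on each array, with 3-month arrays in blue and 12-month arrays in red; circle, square and triangle are replicates 1, 2 and 3, the black bar is the mean ± SD, and every panel spans the same number of log2 units. *Cnot6l* had the widest gap, between 5.31 and 8.18, and *Pabpc1* has 5 points because 1 spot gave no value.

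The rise of the 6 genes stood beside age differences in markers of other cells of the preparation. Over all tested probes, 5.31% were called higher and 3.03% lower, and 10396 of 17931 had a negative difference. All 6 measured stellate and mesenchymal markers of 8 listed were higher at 12 months, 1 of them at the adjusted threshold (*Pdgfrb*, which like the other markers here is named after its value was seen), and their summed level was 13.28 to 14.10 (log2) at 3 months and 14.69 to 16.01 at 12 months. All 10 tested nerve and Schwann markers of 12 listed were lower, 2 at the adjusted threshold (*Sox10* and *Prph*), with a mean level of 10.56 to 11.07 (log2) at 3 months and 9.32 to 9.97 at 12 months over the markers with a value on every array. Their summed levels, to which the bright *Uchl1* adds most, were 15.66 to 15.96 and 15.50 to 15.70 (log2), and *Sox10* had no value on 3-month replicate 1. Of 6 measured endothelial markers of 8 listed, 5 were lower and 0 passed, at 15.79 to 16.17 and 14.94 to 15.70 (log2). Markers of each of these cell types were detected at both ages, but at 12 months *Cdh5* (endothelial) was well above background on 0 of 3 arrays, and *Itgam* (immune) and *Cdh19* (Schwann) were too dim to be tested. The summed levels of duct markers (4 measured of 6) were 13.70 to 14.29 and 13.12 to 14.50 (log2), those of immune markers (7 tested of 8) were 14.45 to 15.88 and 14.13 to 16.09, and in neither list did a gene pass. In RNA of whole islets, fewer cells of a type and less RNA per cell cannot be told apart, and the part of these markers in the differences above was not tested.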

How the data were processed

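Islet RNA of 6 male Wistar rats was labelled with Cy3 and hybridised to Arraystar arrays of 24684 probes on 42136 spots. The deposited scanner files hold spot intensity from Agilent Feature Extraction 11.0.1.1, per the file headers, background-subtracted and not normalised between arrays; their other columns used here hold names, control types and quality marks. A second table that the authors deposited gives log2 values of 12145 probes, stated to be quantile normalised; on each array their correlation with the log2 values used here was 0.9996 or more. Arrays have no read depth, and their number limits the precision. No probe was saturated.

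Spots of a probe not marked as outliers were averaged as log2 intensity and quantile normalised. A probe well above background on at least 3 of 6 arrays was kept. Ages, taken from the labels, were compared two-sided, without a block, by lmFit and eBayes of limma 3.58.1 (R 4.3.3), and p-values were adjusted over 17931 probes (Benjamini-Hochberg). The third 12-month array carries no number in the labels. RefSeq accessions without versions named 14274 of 15321 mRNA probes, and the brightest probe stood for a gene; no coordinates of probes are given. The limma fit was tested on simulated arrays with independent errors and no effect of scan. The members and lists were chosen with earlier results of these data known. Named were all members, their paralogues, the largest called rises and falls of each list, up to 2 each way (others are said to be named after their values were seen), and the 3 genes most like the member with the smallest p. The 20 alternatives changed scaling, background correction, filter, variance model, test, probe rule, pairing and arrays used. One of them, the 4 arrays with higher acinar markers, was chosen after seeing the data.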

Additional observations from a re-analysis of the deposited data

How the results depend on the processing

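The decrease of *Tarbp2* kept its sign in all 20 alternatives, and *Drosha*, *Xpo5* and the 6 called pathway genes kept theirs in every alternative that gave a value. *Tarbp2* no longer passed an adjusted p of 0.05 with 4 arrays whose names share an ending (-1.16 log2), with the 4 arrays of higher acinar marker levels (-1.06), with the methods' t-test (-1.06) or with the paired t-test by replicate number (-1.06), and leaving out 1 array gave -1.17 to -0.94. *Drosha* passed with array weights (0.80, limma adjusted p 0.0306), and leaving out 1 array gave 0.58 to 0.92. It is not in the authors' table, so 19 alternatives gave a value. *Dgcr8* reversed on the 4 arrays of higher acinar marker levels (-0.055) and ranged from -0.13 to 0.36 when 1 array was left out. *Lin28a* reversed with 4 arrays whose names share an ending (0.18) and ranged from -1.04 to 0.11 when 1 array was left out. *Xpo5* then ranged from 0.35 to 0.61.

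The number of members called, 1 here, was 2 with array weights and 0 with 4 arrays whose names share an ending, the 4 arrays of higher acinar levels, the methods' t-test or the paired t-test, and it was 0 in each of the fits without 1 array. The share of all probes called moved as well, from 8.34% to 31.8% with array weights, 1.60% on the 4 arrays of higher acinar levels, 2.44% with the methods' t-test, 0 probes with 4 arrays whose names share an ending and 1 probe with the paired t-test. This share was 9.59% with arrays shifted to a common 75th percentile. The number of other pathway genes called, 6 here, was 11 of 39 with array weights (28.2%), 3 with arrays shifted to a common 75th percentile, 2 with the methods' t-test, 1 on the 4 arrays of higher acinar levels, and 0 with 4 arrays whose names share an ending or the paired t-test. It was 1 to 5 when 1 array was left out, namely 1 without 12-month replicate 1, 12-month replicate 3 or 3-month replicate 3, and 2 without 3-month replicate 1. At the threshold of the study 2 members were called on the 4 arrays of higher acinar levels and 0 to 1 with 1 array left out, and other pathway genes numbered 5 with the paired t-test and 7 to 10 in the fits without 1 array. The causes of these changes were not tested.

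Deviations of same-numbered arrays from the means of their ages correlated at -0.01, -0.31 and -0.26. The third 12-month array carries no number in the labels and was numbered by its order. Deviations from a mean of 3 arrays sum to 0, so these values cannot decide whether the arrays were paired. The supplement of the study names a paired t-test. With the replicate block over 3 pairs 97 of all probes, 0 members and 1 other pathway gene were called, and *Tarbp2* differed by -1.06 (limma adjusted p 0.139). With the block over the numbered pairs only, 0 of all probes, 0 members and 0 other pathway genes were called, and the differences were -1.16 for *Tarbp2* (adjusted p 0.300), -0.15 for *Dgcr8* and 0.27 for *Lin28a*. No slide or scan block was run, since each age lies in 1 scan.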
